A study of Mus musculus with 12 samples.

Results

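The peaks described here lie beside Slc40a1, the gene of ferroportin, on mouse chromosome 1. They are all Nrf2 peaks that overlap a window of 150 kb (mm9, chromosome 1, 45880000 to 46030000). The window holds 16 of the 8644 peaks of the series, and these merge into 3 of its 4147 regions. A region is the union of peaks of any library that overlap by at least 1 bp. The window was chosen by the number of peaks that the lists show in it, so the presence of the peaks and their ranks are given as a description, with no test.

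Nrf2 occupancy was measured by chromatin immunoprecipitation with sequencing (ChIP-seq) in peritoneal macrophages of mice aged 7 to 8 weeks, drawn into the abdominal cavity by an injection of 4% thioglycolate broth and collected on day 4. The WT group carried the wild-type Nrf2 gene. The AY group was of the genotype Nrf2(AY/AY), homozygous for an allele known to replace an alanine by a tyrosine in the part of Nrf2 that touches DNA. Cells of both groups were exposed to diethyl maleate, an electrophile, at 100 µM for 4 hours, so no group shows the unstressed state. Each genotype had 3 ChIP libraries, and the 6 input libraries were not analysed here. The labels do not say whether the 3 libraries of a genotype came from separate mice, so their spread may be technical.

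Ferroportin is the protein through which cells release iron. Macrophages depend on it when they return the iron of digested red cells to the blood, and the hormone hepcidin limits this flow by causing the protein to be degraded. Nrf2 is normally kept low by Keap1. Electrophiles such as diethyl maleate modify Keap1, after which Nrf2 accumulates, pairs with a small Maf protein and binds antioxidant response elements. Slc40a1 is a known Nrf2 target in macrophages. The change carried by the AY allele is known to shift the DNA preference of the Nrf2 and small Maf pair towards that of Maf dimers, and the study compared the sites of the mutant protein under stress with those of its wild-type counterpart.

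None of the 3 regions overlapped Slc40a1 itself. The gene was taken to span about 45965000 to 45982000 in mm9, a rounded position supplied with the definition of the window and not read from an mm9 annotation. Region 1 lay at 45916992 to 45917785 (794 bp), about 47 kb below the gene. Region 2 lay at 45929755 to 45930748 (994 bp), about 34 kb below it. Region 3, the nearest, lay at 45938098 to 45938940 (843 bp), about 26 kb below it. Slc40a1 is known to be transcribed towards lower coordinates, so the regions would lie beyond its 3′ end. No peak of any library overlapped the assumed span of the gene or the rest of the window above it.

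The regions can therefore be tied to Slc40a1 by nearness only. In a RefSeq gene table of another build (GRCm38), used for gene order alone, the protein-coding neighbours of Slc40a1 are Wdr75, a factor of ribosome production, on the lower side and Dnah7b, an axonemal dynein gene, on the upper side. Between Wdr75 and Slc40a1 the table lists the long non-coding RNA Gm30900 and the pseudogenes Gm5526, Gm5269 and Gm18303. Whether a region falls in an exon or intron of one of these was not determined, since no mm9 annotation was used, and the DNA sequence of the regions was not used here.

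The 3 regions formed a compact group. Region 1 and region 2 were 11969 bp apart, region 2 and region 3 were 7349 bp apart, and the whole group spanned 21949 bp. Outside the window, the nearest region on the lower side was 1445 kb from the group (44471195 to 44471579, in 1 AY library). The nearest on the upper side was 991 kb away (46930107 to 46930966, in 1 WT and 3 AY libraries). How common gaps of this length are in the series was not counted. Of the 4147 windows of this length that start at a region, 892 (21.5%) held 3 or more regions, and of fixed tiles of this length that hold any region, 9.16% did.

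What the 3 regions had in common was repeated detection in both genotypes. Each held a peak in all 3 WT libraries and in at least 2 AY libraries, a state met by 276 of the series' regions, or 48.8% of the 566 with a peak in each WT list. Of the 276 windows that start at such a region, 7 (2.54%) held 3 or more of them. Among these regions, 3 in a row within 21949 bp or less, the span of the locus itself, occurred at 1 other place, chromosome 5, 17505461 to 17520770. Among all 4147 regions, whatever their presence, 264 sets of 3 in a row were as tight. No test of clustering was made, as the locus had been picked for it.

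Region 1 was occupied in every library, and region 2 and region 3 in every library except AY replicate 3. A peak in all 6 libraries was found at 4.87% of all regions (202 of 4147), and a peak in 3 WT and 2 AY libraries at 1.78% (74). The WT lists thus held 3 peaks each in the window, and AY replicates 1, 2 and 3 held 3, 3 and 1. No region was restricted to a genotype, where 5.21% of all regions had a peak in 3 WT and 0 AY libraries and 9.38% in 3 AY and 0 WT libraries. Without AY replicate 3, all 3 regions were present in every remaining library.

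AY replicate 3 often lacked peaks of middle rank that the other AY libraries held. Of the 261 regions present in the 5 other libraries, AY replicate 3 held 77.4%. It was the missing library at 79.7% of the 74 regions with 3 WT and 2 AY peaks. At 72 regions, region 2 and region 3 among them, the relative rank (defined in the next paragraph) was between 40% and 60% in AY replicates 1 and 2, and AY replicate 3 held 36.1% of these, against 61.8% of all 1181 regions present in both other AY libraries. Its list of 1086 peaks was the shortest of the AY lists. The read depth behind every list is unknown, so a missing peak says only that no peak was called there in that library.

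Strength was read from the score of each peak, which is the authors' value and was read as a p-value on the -10 log10 scale. It depends on depth and control and was compared only within a list. Peaks were ranked in each list from 1 for the highest score, and the relative rank is that rank as a percentage of the list's length, so that a low value means a strong peak.

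Region 1, the farthest from the gene, ranked moderately high within the WT lists and lower within the AY lists. Its WT scores were 276.04, 232.5 and 220.13 in replicates 1, 2 and 3, which placed it at ranks 262 of 1604, 123 of 826 and 204 of 1533. Its AY scores were 115.15, 168.04 and 63.61 in replicates 1, 2 and 3, at ranks 1108 of 2154, 424 of 1441 and 797 of 1086. The relative ranks were close together in WT, from 13.3% to 16.3%, and spread in AY, at 51.4%, 29.4% and 73.4%. The WT mean was 14.8% ± 1.51 and the AY mean 51.4% ± 22.0 (SD, n = 3 each), so that 36.6 percentage points lay between them. Every AY value lay on the weaker side of every WT value. Among the 202 regions with 6 peaks, 26.7% had this order and 20.8% the reverse.

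Region 2 had the best single ranks of the locus and the widest difference between genotypes. It scored 505.46, 170.02 and 342.74 in WT replicates 1, 2 and 3, at ranks 96, 198 and 97. The peak in AY replicate 1 scored 101.07, at rank 1231, and that in AY replicate 2 scored 94.61, at rank 793. WT replicates 1 and 3 put the region at relative ranks of 5.99% and 6.33%, and WT replicate 2, the shortest list, at 24.0%. AY replicates 1 and 2 put it at 57.1% and 55.0%. The WT mean was 12.1% ± 10.3 (SD, n = 3) and the AY mean 56.1% ± 1.50 (SD, n = 2), which is 44.0 percentage points apart with no overlap.

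Region 3, the nearest to the gene, had a WT mean close to that of region 2 and differed less between the genotypes. Its scores in WT replicates 1, 2 and 3 were 465.59, 209.33 and 282.27, at ranks 112, 146 and 138. In AY replicates 1 and 2 it scored 137.19 and 121.23, at ranks 929 and 594. The relative ranks of 6.98%, 17.7% and 9.00% in WT again did not overlap those of 43.1% and 41.2% in AY. The means were 11.2% ± 5.68 (SD, n = 3) and 42.2% ± 1.35 (SD, n = 2), a difference of 31.0 percentage points. Over AY replicates 1 and 2 alone, the only AY libraries with all 3 regions, the mean was 40.4% for region 1, 56.1% for region 2 and 42.2% for region 3.

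**Figure D1:**
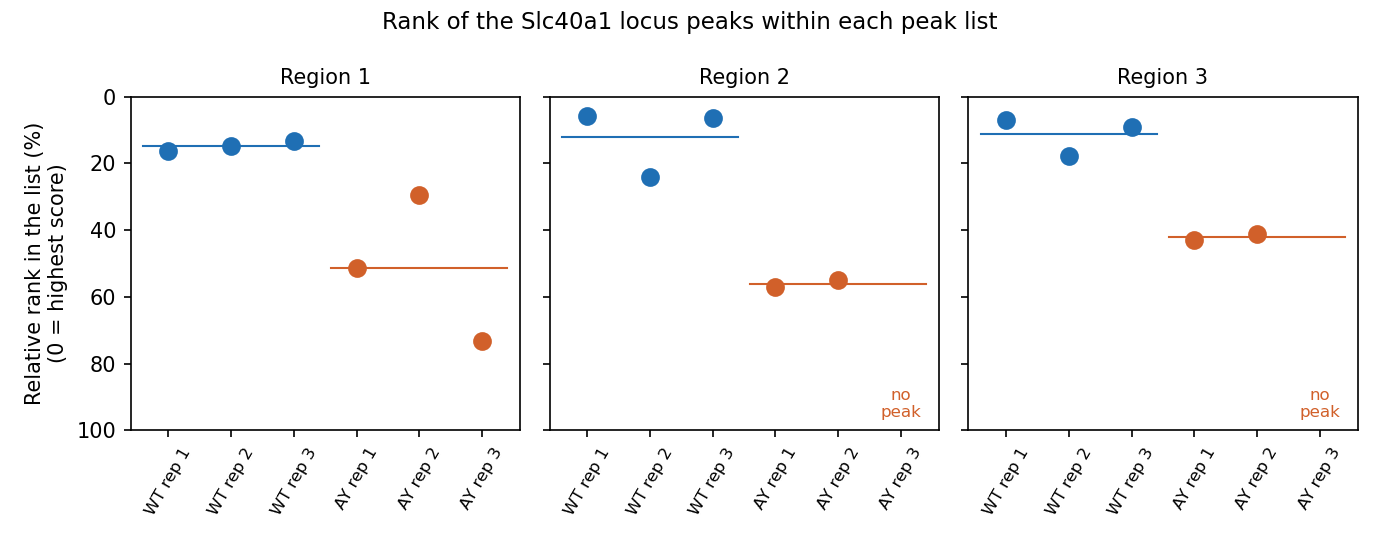
Relative rank of each peak (y axis, percent of the list, 0 at the top being the highest score) in the 6 libraries (x axis), with 1 panel per region, WT in blue and AY in orange. Lines are genotype means over the libraries with a peak. WT points lie between 5.99% and 24.0%, and AY points between 29.4% and 73.4%.

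All 3 regions of the locus therefore ranked better in WT than in AY without overlap. The same held for 25.1% of the 395 regions with peaks in at least 2 libraries of each genotype, and the reverse order for 23.5%. Both shares pool regions held by different numbers of libraries, and fewer values make a lack of overlap easier. No share was taken for regions with 3 WT and 2 AY peaks alone, the presence shown by region 2 and region 3. Since the locus was chosen with these lists in view, its count is a description of the locus. Over the 395 regions the mean relative rank in AY minus that in WT had a median of 2.85 percentage points, with quartiles of -16.9 and 19.0. Of the 395, 25 had a larger value than region 2, 43 a larger value than region 1 and 55 a larger value than region 3. Region 2 and region 3 belong to the 74 regions with peaks in 3 WT and 2 AY libraries, most of which had a positive value. Their standing among the 395 is thus not their standing among regions of like presence. The value of region 1 includes AY replicate 3, which had no peak at the other regions of the locus. Without AY replicate 3 it was 25.6, against 44.0 at region 2 and 31.0 at region 3.

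**Figure D2:**
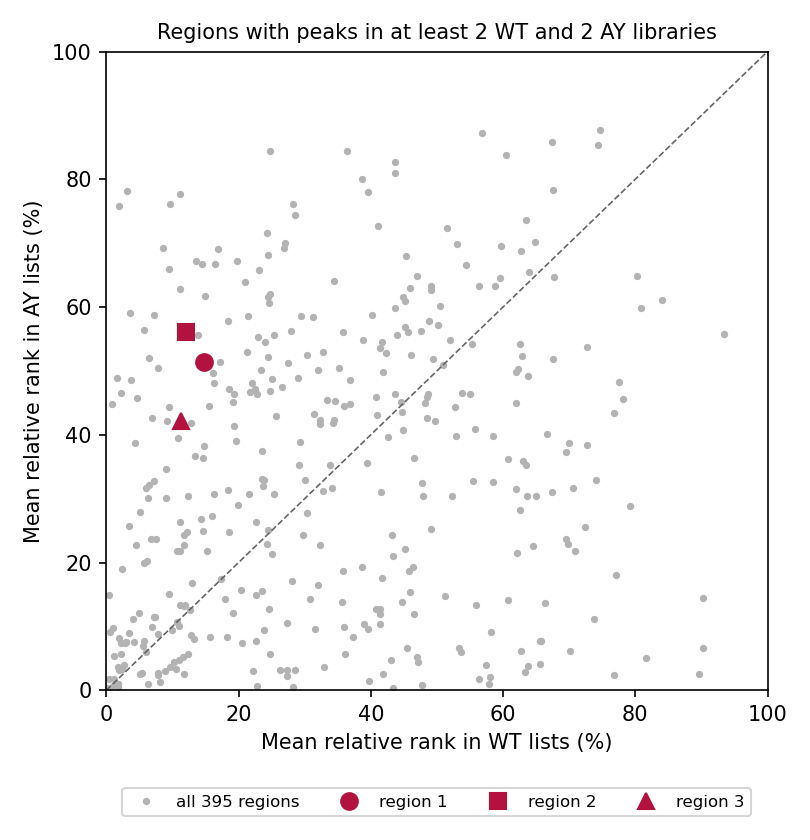
Mean relative rank in the WT lists (x axis, percent) against that in the AY lists (y axis, percent) of the 395 regions with peaks in at least 2 libraries of each genotype, 1 point per region. The dashed line marks equal ranks. The 3 regions of the Slc40a1 locus, in red, lie together at 11.2% to 14.8% in WT and 42.2% to 56.1% in AY.

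Relative rank also depends on how many weak peaks a list holds, and the lists run from 826 to 2154 peaks. The regions were therefore ranked again among the 261 regions found in the 5 libraries other than AY replicate 3, so that every library was ranked over the same sites. On this scale the WT ranks of region 2 were 75, 130 and 61 (replicates 1, 2 and 3), and its AY ranks were 237 and 202 (replicates 1 and 2). For region 3 they were 82, 101 and 83 against 212 and 170 in AY. For region 1 they were 150, 89 and 113 against 228 and 139, so that AY replicate 2 fell between the WT values. On this scale the genotypes thus did not overlap at region 2 and region 3 but did at region 1. Of the 261 regions, 31.8% had all WT ranks ahead of both AY ranks, and 29.9% had the reverse. Region 1 could also be ranked among the 202 regions with a peak in all 6 libraries. There its WT ranks were 129, 79 and 98 and its AY ranks 192, 135 and 178 (replicates 1, 2 and 3), which did not overlap, so its separation depended on the set of regions ranked. Of the 202 regions, 32.2% had all WT ranks ahead on this scale and 28.2% the reverse.

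The order of the regions inside a library was not fixed by genotype. In WT replicates 1 and 3 region 2 scored highest and region 1 lowest. In WT replicate 2 and in AY replicate 2 the order was the opposite, with region 1 highest, region 3 next and region 2 lowest. In AY replicate 1 region 3 led, followed by region 1 and region 2. Region 2 thus came first in 2 of 3 WT libraries and last in each AY library that held it.

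**Figure D3:**
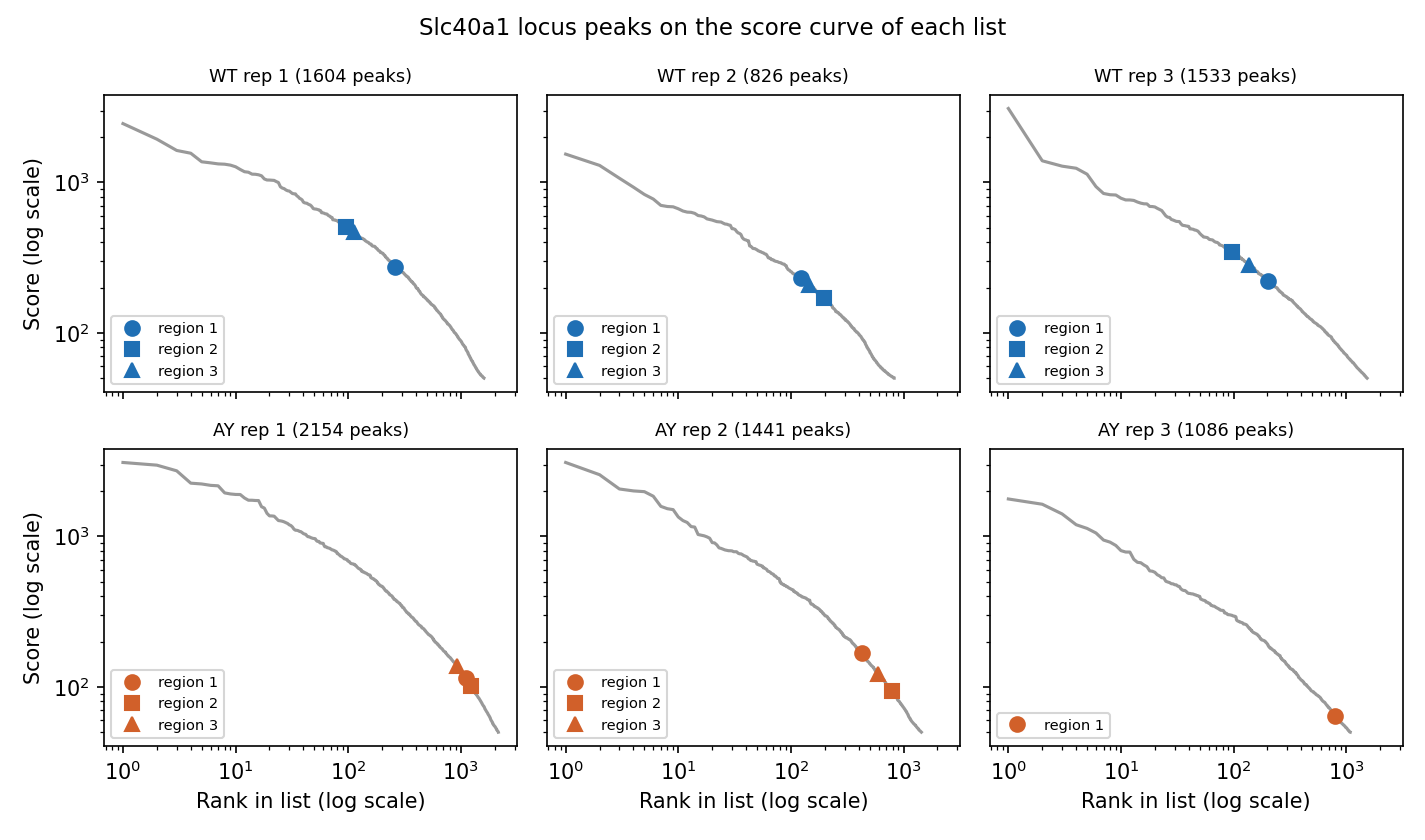
Score of every peak (y axis, log scale) against its rank in the list (x axis, log scale) for the 6 libraries, with the Slc40a1 locus peaks marked by region. WT peaks lie on the upper part of the curves at ranks 96 to 262, and AY peaks on the lower part at ranks 424 to 1231.

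Sites of like strength in WT set these values in context. At 52 regions with a peak in every WT library the mean WT relative rank was between 10% and 15%, and the 3 regions of the locus are among them. Of the 52, 36 had a peak in at least 2 AY libraries, 5 in 1 and 11 in none. The mean AY relative rank of the 36 had a median of 24.9% with quartiles of 13.1% and 41.9%. It exceeded 40% at 10 of the 36, and the locus supplied 3 of these 10. The band was set around the WT means of the locus and the cut lies below its AY means, so its place among the 10 was given in advance. The 5 regions with 1 AY peak and the 11 with none are not part of the 36. Among the 36, loss of rank in AY was thus not shared by every site.

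The other compact group, on chromosome 5, showed another pattern and was picked only for its spacing. It holds 4 regions, in order of position, with mean relative ranks in WT of 52.3%, 15.3%, 25.1% and 7.22%. In AY the same regions stood at 30.5%, 21.8%, 21.3% and 11.4%. AY was ahead at the first and the third of them and WT at the others, whereas WT was ahead at all 3 regions beside Slc40a1. The difference between the 2 groups of regions was not tested.

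The position of a peak inside its region played no part in choosing the locus and was compared between genotypes. Positions are those of the midpoint of a peak, given as the distance in bp from the middle of its region, with positive values towards higher coordinates, that is towards Slc40a1. In region 1 the WT midpoints were at 41, 34 and 44 (replicates 1, 2 and 3) and the AY midpoints at 0, -36 and -11. The AY midpoints lay 55.3 bp below those of WT on average. The 2 groups did not overlap, but a two-sided exact permutation test of 3 against 3 libraries gives p = 0.1, the smallest value it can give. With the replicate number as a block, an exact sign-flip test gives p = 0.25, again the smallest possible. Region 1 was the only region with 6 values and the only one tested. Its peak edges did overlap between the genotypes, with mean differences of -32.3 bp at the start (exact permutation p = 0.5) and -78.3 bp at the end (exact permutation p = 0.4).

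The midpoints of the other regions were apart as well, in different directions. In region 2 the WT peaks were at 0, 32.5 and 13 (replicates 1, 2 and 3) and the AY peaks at 41.5 and 69.5 (replicates 1 and 2), a mean shift of 40.3 bp upwards. In region 3 they were at 8.5, -5 and -19.5 in WT and at -67.5 and -88 in AY, a mean shift of -72.4 bp. The midpoints of WT and AY thus did not overlap in any of the 3 regions. Of the 395 regions with at least 2 peaks of each genotype, 25.6% showed such a separation in either direction, and of the 202 regions with 6 peaks, 15.8% did. The absolute shift had a median of 28 bp over the 395 regions, with quartiles of 13.0 and 53.6 bp, and 94, 142 and 54 of them had a larger shift than region 1, region 2 and region 3.

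**Figure D4:**
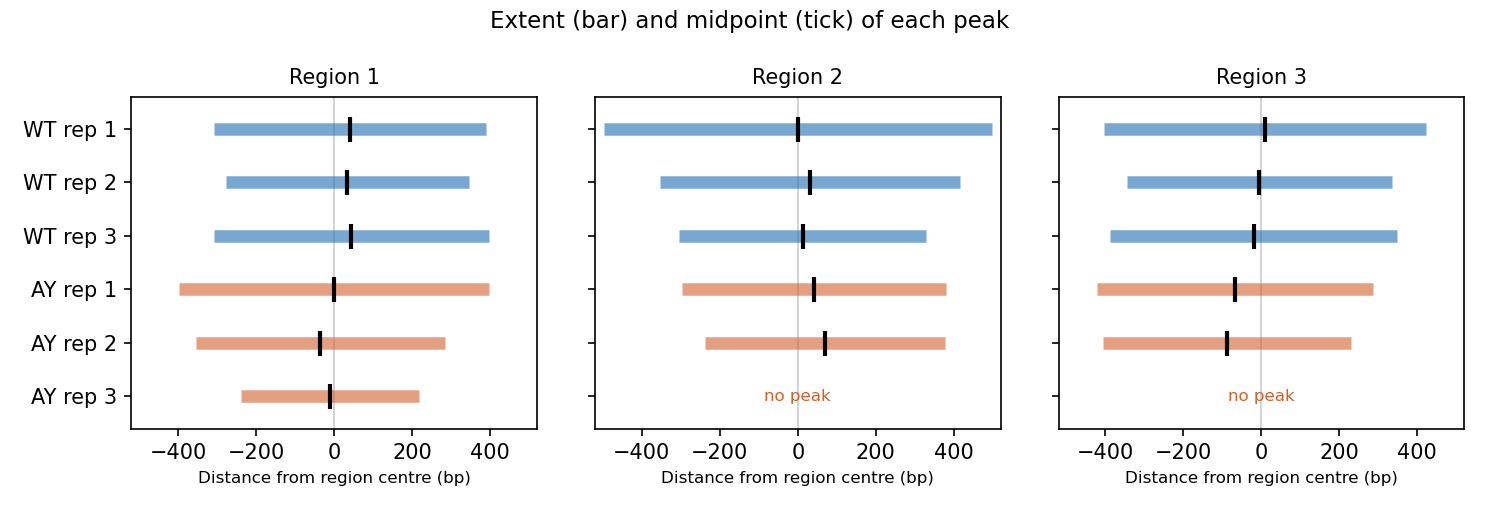
Extent of each peak (bar) and its midpoint (black tick) as distance in bp from the middle of the region (x axis), by library (y axis), with WT in blue and AY in orange. The AY midpoints lie to the left of those of WT in regions 1 and 3 and to the right in region 2, by 40.3 to 72.4 bp on average, while the bars overlap throughout.

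These shifts were small beside the peaks. The 6 peaks of region 1 shared 456 bp, the whole of the narrowest peak, and the 5 peaks of region 2 and of region 3 shared 569 bp and 574 bp. In region 1 the WT peaks were 698, 624 and 704 bp wide (replicates 1, 2 and 3) and the AY peaks 794, 638 and 456 bp. The WT mean of 675 ± 44.6 bp and the AY mean of 629 ± 169 bp (SD, n = 3 each) differed by less than the AY spread (two-sided exact permutation p = 0.8), and the difference of -46 bp turned to 40.7 bp without AY replicate 3. Region 2 held the widest peak of the locus, 994 bp in WT replicate 1, and its other peaks were 617 to 769 bp wide. In region 3 the peaks were 635 to 826 bp wide. The lists give no summits, and a midpoint moves with either edge of a peak, so the midpoints are not positions of the bound element.

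The AY record of the locus depended on the threshold applied to the lists. With only peaks scoring at least 100, region 1 kept its 3 WT peaks and those in AY replicates 1 and 2, region 2 kept the AY peak of replicate 1 alone, and region 3 lost none. Among the 826 highest-scoring peaks of each list, which is the length of the shortest list, every WT library still held all 3 regions. AY replicate 2 held all 3 as well, AY replicate 3 held region 1 at rank 797, and AY replicate 1 held none, because its best rank in the locus was 929.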

How the data were processed

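The build mm9 and the tools bcl2fastq 2.15.0, Bowtie2 and MACS 1.4 are named in the submitters' processing notes. Tool settings and any use of input as control are not given in the sources consulted. For each ChIP library the authors deposited a separate peak list, with a score per peak from 50 to 3100 and no read counts. Peak ends reach 196860724 on chromosome 1, beyond the last gene of that chromosome in the GRCm38 table, so no coordinate of that table was used.

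Positions count from 1. Python 3.11.15, pandas 2.3.3 and numpy 2.4.6 were used. Merging and counting were checked on simulated lists, and the exact tests on small fixed sets of values. Where a library had several peaks in a region, the best was used. Every region in the window is described. The bands of relative rank used for context were set around the values of the regions, and the planned search for motifs was not made because no mm9 sequence was used. The window, the rule and the comparisons were chosen with earlier results of these data known. The alternatives were score of at least 100, the 826 top peaks per list, merging within 1 kb or at 50% overlap, each library left out, the replicate number as a block, peak edges for midpoints, score over the highest score, other window placements, and, added after the data were seen, ranks over common regions (those in all 6 libraries, or in the 5 without AY replicate 3).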

Additional observations from a re-analysis of the deposited data

How the results depend on the processing

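The number of regions in the window, 3, and the absence of genotype-restricted regions were the same in all 10 alternatives run. Most of these could not have changed them. Each region had peaks in 3 WT and at least 2 AY libraries, so leaving out a library could not remove or restrict it. The gaps between regions also exceed the 1 kb used for merging. The number of regions with a peak in every library, 1, fell to 0 with a score of at least 100 and to 0 with equal lists, both of which drop peaks by construction, and was 1 to 3 when a library was left out, the 3 being without AY replicate 3. WT was ahead in mean rank at all 3 regions under every alternative run. With equal lists the difference was 50.1 percentage points at region 1, 80.2 at region 2 and 55.9 at region 3. At region 2 and region 3 AY replicate 2 alone was left for AY. Ranks are then divided by 826 in every list, which raises relative ranks from longer lists by construction. The larger differences are thus no sign of a stronger contrast between the genotypes. Leaving out a library gave 25.6 to 47.6 at region 1, 40.9 to 49.9 at region 2 and 28.8 to 34.2 at region 3. The midpoint shift in region 1 was -63.2 to -45.2 bp when a library was left out, -32.3 bp at the peak start and -78.3 bp at the peak end, and the width difference -128 to 40.7 bp, with 40.7 without AY replicate 3. The share of windows with as many regions, 21.5%, was 9.16% with fixed tiles, 9.30% with shifted tiles, 12.4% for regions in 2 or more libraries and 12.5% with a score of at least 100. The main tests did not pair libraries by replicate number, although the values leave room for such a pairing. Over 1897 regions, deviations from the genotype means of presence correlated at 0.0961, 0.0861 and 0.195 for numbers 1, 2 and 3. Between unlike numbers the correlations were -0.161 to 0.0640, so every library had its highest correlation with the same number. Whether equal numbers mark a shared preparation was not tested. With the replicate number as a block, the midpoint shift in region 1 was -55.3 bp (exact sign-flip p = 0.25, the smallest possible) and the width difference -46 bp (exact sign-flip p = 1). Unknown depth limits every absent peak.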
